A study of Sus scrofa with 8 samples.

Results

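The liver secretes hormone-like proteins into the blood, and 9 genes that encode such hepatokines and angiopoietin-like proteins are described here: FGF21, ANGPTL4, ANGPTL8, AHSG, FETUB, GDF15, LECT2, INHBE and SELENOP. They were chosen by their symbols in the table of hepatic expression, where each had 1 row, and so make up 9 of the 18103 genes listed. All 9 passed the filter on low values described below, and all had at least 0.3 FPKM in all 8 libraries. FPKM, the fragments of a gene scaled by transcript length and by the mapped fragments of the library, is the unit of the deposited values and permits comparison of levels between genes per length.

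Hepatic RNA of male Landrace x Large White pigs was analysed by RNAseq in 8 libraries, each prepared from equal amounts of RNA of 2 pigs. In the initial state (4 pools, labelled control and healthy) the animals were 4 months old, received the control diet, and the liver was taken as a biopsy by laparotomy. In steatosis (4 pools) the animals were 6 months old, had received the steatotic diet for 2 months, and the liver was obtained after euthanasia. This diet was rich in saturated fat, with added cholesterol and sodium cholate and more fructose than the control diet, and it was poor in protein, methionine and choline. Both groups were sampled after overnight fasting and, according to the study, were the same animals. Diet, age and the way of sampling therefore changed together and cannot be told apart. A pool averages its animals, so the spread given here is that between pools.

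Hepatokines act on other organs or on the liver itself. FGF21 is a fasting and nutrient stress hormone that signals through FGF receptors with the co-receptor KLB. GDF15 is a stress cytokine read in the hindbrain by GFRAL and RET. ANGPTL4 and ANGPTL8 are inhibitors that restrain the lipoprotein lipase LPL and thus the clearance of plasma triglycerides. AHSG and FETUB encode fetuin-A and fetuin-B, abundant plasma proteins of the cystatin superfamily. INHBE encodes the subunit of activin E, LECT2 is a secreted protein first known as a leukocyte attractant, and SELENOP carries selenium from the liver to other tissues.

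The libraries were comparable in depth but 1 of them stood apart. From the steps between low FPKM values, the depth was estimated at 93.8 to 100% of that of the deepest library. The hepatocyte marker ALB, the gene of albumin, was between 33168.23 and 71002.95 FPKM in every library. Pool 1 of the initial state also held transcripts of other tissues. Its 9 skeletal muscle markers summed to 2942 FPKM, against 0.31 to 22.15 FPKM in the other 7 libraries. Its 10 stomach mucosa markers summed to 1525 FPKM, against 5.81 to 29.11 FPKM, and ADIPOQ, the adipocyte gene of adiponectin, was at 27.92 FPKM, against 0.60 FPKM or less. The adipocyte hormone gene LEP was at 0.40 FPKM there and at 0 in the other 7 libraries. Results are therefore also given without this pool where it matters. The 12 macrophage markers summed to 331 to 437.3 FPKM in the initial state and to 987.3 to 1677 FPKM in steatosis, and 10 of the 12 rose. Of the steatosis sums, 405.14 to 1096.22 FPKM came from GPNMB. CD163 overlapped between the groups, and CD5L was lower in every steatosis pool (133.3 to 155.61 FPKM) than in every initial pool (165.51 to 244.31 FPKM). The part of macrophages in the results below was not tested.

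**Figure D1:**
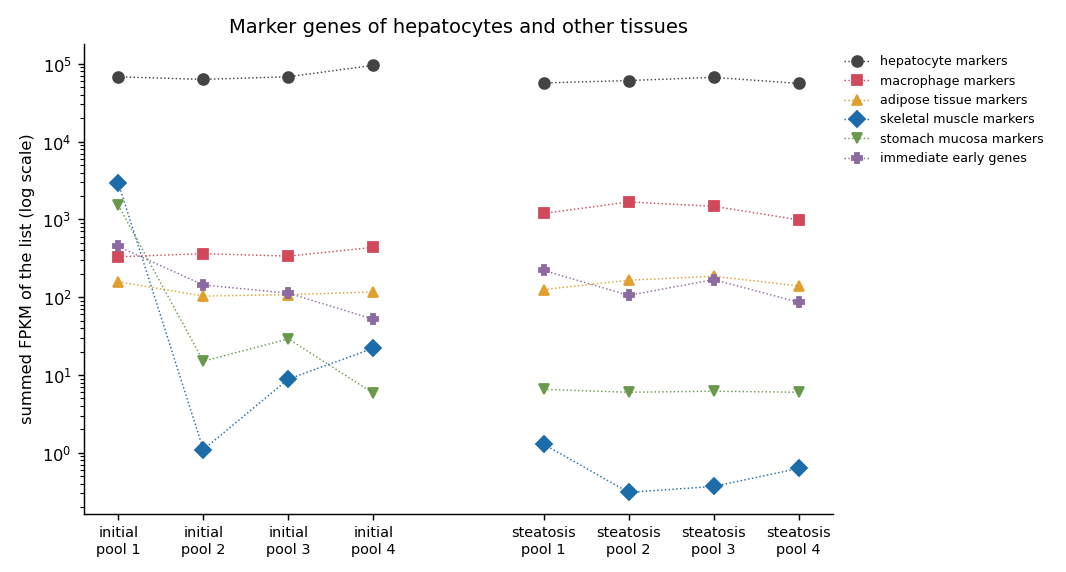
Summed FPKM of marker genes (logarithmic vertical axis) in each of the 8 libraries (horizontal axis), 1 symbol per marker list. Pool 1 of the initial state sits at 2942 FPKM for skeletal muscle and 1525 FPKM for stomach mucosa, above all other libraries, and the macrophage sums of the 4 steatosis pools lie above those of the 4 initial pools.

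For each of the 13175 genes that reached 0.3 FPKM in 4 or more libraries, log2(FPKM + 0.1) was compared between groups with limma. The p-values were adjusted over all these genes by the Benjamini-Hochberg method. A gene is said to have risen or fallen when its adjusted p was under 0.05. Of the 9 genes, 1 fell (FETUB) and 0 rose, while 29.0% of all tested genes were called (26.7% higher and 2.28% lower). At an unadjusted p under 0.05, 3 of the 9 were higher and 1 was lower, against 37.8% and 4.13% of all tested genes. The study called a gene differentially expressed only when the adjusted p was under 0.01 and the change also exceeded 1 on the log2 scale. By these limits 0 of the 9 genes were called in either direction, against 6.35% of all tested genes (6.01% higher and 0.334% lower). The median log2 fold change of the 9 genes was 0.35 and that of all tested genes was 0.25, so changes are also given relative to this shift. When every library was scaled by its median ratio over genes to their mean level, these medians were 0.10 and 0.005. With that scaling the calls over all genes were 57.9% higher, compared with 92.1% without it.

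The hepatic levels of the 9 genes spanned 3 orders of magnitude. SELENOP and AHSG ranked 21 and 24 among the 13175 tested genes by mean FPKM, and LECT2 ranked 135. FETUB, ANGPTL4, FGF21 and INHBE followed with group means between 8.94 and 113.9 FPKM. ANGPTL8 and GDF15 were near 1 FPKM, at percentiles 18.8 and 16.8 of the levels of tested genes. Levels of SELENOP and AHSG overlapped in both groups, as did those of FGF21 and INHBE and those of ANGPTL8 and GDF15, so the order within each of these pairs is within the spread between pools. Together the 9 genes took 0.958 to 1.31% of the summed FPKM in the initial state and 1.37 to 1.5% in steatosis, most of it from AHSG and SELENOP.

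**Figure D2:**
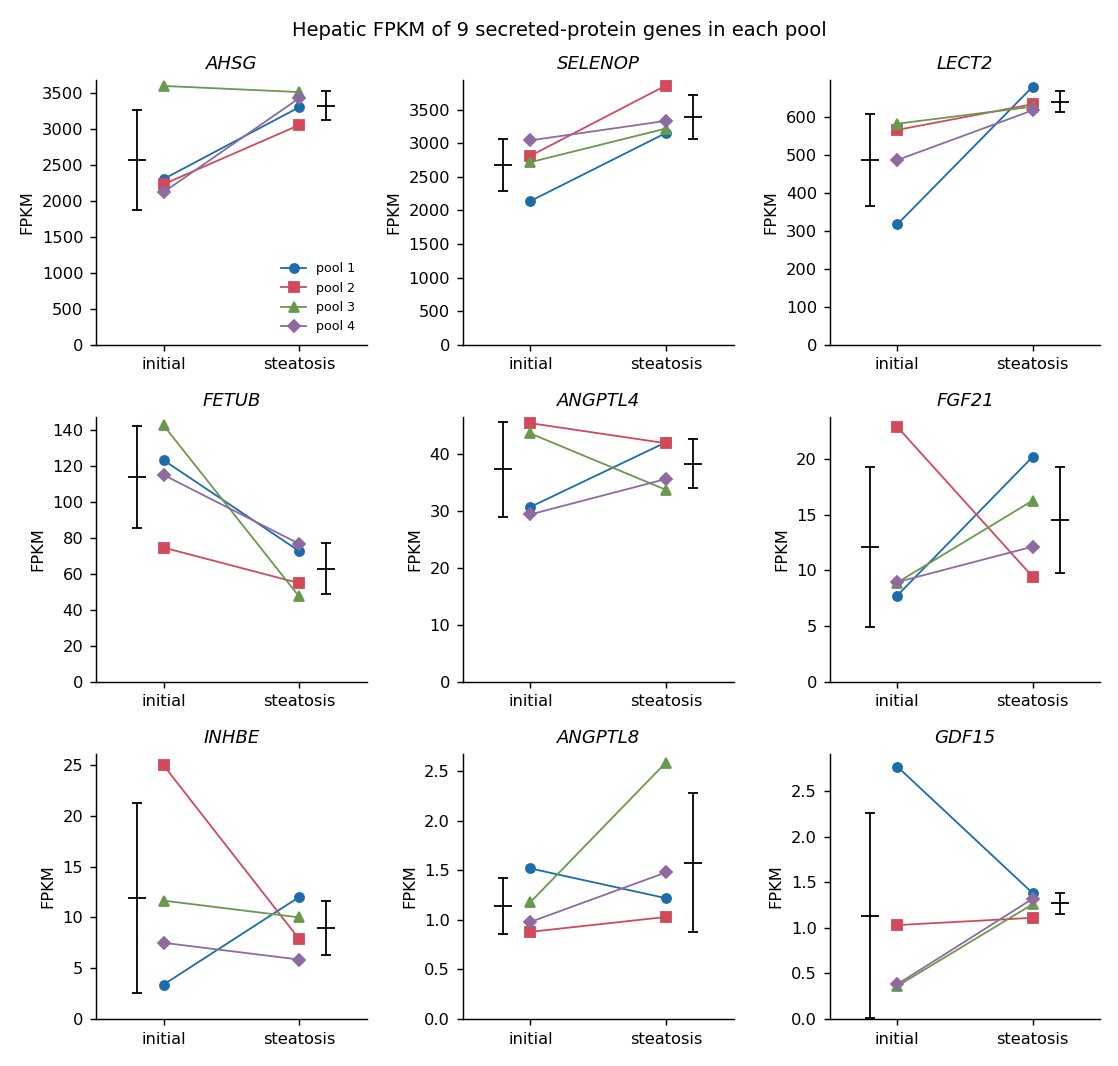
FPKM (vertical axes, from 0) of each gene in the 4 initial and 4 steatosis pools, with lines between pools of the same number and bars for the mean ± SD of each group (n = 4). FETUB is lower in steatosis in all 4 pools, SELENOP and LECT2 are higher in all 4, and FGF21 and INHBE have their highest value in pool 2 of the initial state.

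FETUB, the gene of fetuin-B, a plasma inhibitor of astacin-type proteases such as ovastacin, was the gene that fell. FETUB (gene ID 100517609) lies on chromosome 13 at 124480456-124494197 of the Sscrofa11.1 assembly. Its FPKM was 123.27, 74.63, 142.62 and 115.06 in initial pools 1 to 4 and 72.74, 54.89, 47.48 and 76.78 in steatosis pools 1 to 4. The 4 steatosis pools were all below the pools of the same number, although the highest steatosis pool slightly exceeded the lowest initial pool. The mean went from 113.9 ± 28.6 to 62.97 ± 14.0 FPKM (SD, n = 4), which is 1.81-fold lower. The log2 fold change was -0.84 (SE 0.21, 95% interval -1.32 to -0.36), with an adjusted p of 0.017 by limma, and 1.4% of tested genes had a log2 fold change as low or lower. Relative to the median of all genes it was -1.09. FETUB remained below the threshold in all 18 alternative settings, with adjusted p between 0.00489 and 0.049, and without pool 1 of the initial state its log2 fold change was -0.79 (adjusted p = 0.0361).

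AHSG, the gene of fetuin-A, a carrier of calcium phosphate in plasma that also inhibits the insulin receptor, was not called. AHSG (gene ID 397585) is on chromosome 13 at 124426313-124438848, next to FETUB. It was at 2301.98, 2230.44, 3595.50 and 2119.73 FPKM in the initial pools and at 3298.84, 3051.44, 3510.31 and 3424.85 FPKM in steatosis. Pool 3 of the initial state was above every steatosis pool, and the other 3 initial pools were below all of them. The mean was 2562 ± 693 FPKM in the initial state and 3321 ± 200 FPKM in steatosis, with a log2 fold change of 0.41 (SE 0.17, 95% interval 0.03 to 0.78) that missed the threshold (adjusted p = 0.0937). Pool 3 of the initial state decided this: without it the log2 fold change was 0.58 and the adjusted p 0.00618. With the median ratio scaling the log2 fold change was 0.15 (adjusted p = 0.586).

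The ratio of both fetuin genes within a library does not depend on scaling between libraries, and it was examined after the values had been seen. As log2 of FETUB over AHSG it was -4.22, -4.90, -4.66 and -4.20 in the initial pools and -5.50, -5.80, -6.21 and -5.48 in steatosis. The groups did not overlap, and the mean log2 ratio was -4.50 ± 0.34 in the initial state and -5.75 ± 0.34 in steatosis (SD, n = 4). FETUB was thus lower relative to AHSG in every steatosis pool.

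HRG and KNG1, which encode the cystatin superfamily plasma proteins histidine-rich glycoprotein and kininogen, follow AHSG and FETUB on chromosome 13 in RefSeq. HRG fell from 1888 ± 496 to 1163 ± 131 FPKM (log2 fold change -0.67, adjusted p = 0.0214). The log2 fold change of HRG missed the threshold when steatosis pool 3 (adjusted p = 0.0505), steatosis pool 4 (0.0618) or pool 1 of both groups (0.0876) was left out. KNG1 had 469 ± 47.2 and 571.1 ± 60.3 FPKM in initial state and steatosis (0.28, adjusted p = 0.0812). Of the 5 cystatin superfamily genes examined, 2 rose and 1 fell, beside 26.7% and 2.28% of all tested genes. Their median log2 fold change was 0.28, beside 0.25. The risers were the intracellular inhibitor CSTB (log2 fold change 1.96, adjusted p = 4.41e-06) and the secreted cysteine protease inhibitor CST3 (0.93, adjusted p = 0.000562), both of which are also made by macrophages. INSR, the insulin receptor, had a log2 fold change of 0.02 (adjusted p = 0.929).

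The lipase inhibitors come next. ANGPTL4, which inactivates LPL in fasting, is on chromosome 2 at 70905767-70912892 (gene ID 397628), and its row of the table also covers a newly assembled transcript. It was at 30.72, 45.42, 43.61 and 29.40 FPKM in the initial pools and at 42.06, 41.90, 33.72 and 35.61 FPKM in steatosis. The steatosis pools all lay within the range of the initial pools. Means were 37.29 ± 8.40 and 38.32 ± 4.29 FPKM, and the log2 fold change was 0.06 (SE 0.16, adjusted p = 0.798) with a 95% interval of -0.30 to 0.42. Its sign turned with the median ratio scaling (-0.19, adjusted p = 0.312) and without pool 1 of the initial state (-0.02, adjusted p = 0.928).

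ANGPTL8, which feeding induces, is on chromosome 2 at 69951556-69954223 (gene ID 110259345). It was low, at 1.52, 0.88, 1.18 and 0.98 FPKM in the initial pools and at 1.22, 1.03, 2.59 and 1.48 FPKM in steatosis. Pool 3 of steatosis was the highest and the other 3 steatosis pools lay within the initial range. The log2 fold change was 0.38 (SE 0.28, 95% interval -0.23 to 1.0) and did not pass the test (adjusted p = 0.32). It was 0.13 (adjusted p = 0.71) without pool 3 of steatosis and 0.15 (0.751) with the median ratio scaling, and 0.61 (0.197) without pool 1 of both groups.

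Among other angiopoietin-like genes, ANGPTL6, whose protein is a growth factor of liver origin, rose (log2 fold change 0.45, adjusted p = 0.0164), as did the low ANGPTL7 (1.40, adjusted p = 0.0312). After the median ratio scaling neither was called, with adjusted p of 0.237 for ANGPTL6 and 0.0727 for ANGPTL7. ANGPTL7 also missed the threshold without pool 1 of the initial state (adjusted p = 0.0522). ANGPTL5 was not analysed here.

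LPL, the target of these inhibitors, was at 6.59, 0.11, 0.27 and 0.05 FPKM in the initial pools and at 7.20, 11.43, 11.31 and 5.21 FPKM in steatosis. The high initial value belongs to pool 1, the library with muscle and adipose transcripts, tissues known for LPL. The log2 fold change was 4.00 (adjusted p = 0.016), and 5.22 (adjusted p = 3.7e-05) without that pool. Macrophages also make LPL, and the sum of their markers was higher in the same 4 steatosis pools, although CD5L among them was lower. The part of muscle, adipose or macrophage transcripts in the LPL values was not tested.

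Of 9 genes of the lipoprotein lipase system, 2 rose and 2 fell, beside 26.7% and 2.28% of all tested genes. Their median log2 fold change was 0.06, beside 0.25. The other riser was LIPC, the hepatic lipase (log2 fold change 0.51, adjusted p = 0.00617; 0.147 with the median ratio scaling). The LPL activator APOA5 fell from 847.2 ± 274 to 493.6 ± 31.7 FPKM (-0.73, adjusted p = 0.017), and the LPL inhibitor APOC3 fell as well (-0.47, adjusted p = 0.0378). Genes of the LPL pathway in the liver thus did not move in a single direction.

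FGF21, GDF15 and INHBE form a group known to respond to nutrient and cell stress. FGF21 (gene ID 100302504) is on chromosome 6 at 54082653-54084532. Its FPKM was 7.74, 22.88, 8.91 and 8.95 in the initial pools and 20.20, 9.42, 16.27 and 12.13 in steatosis. Pool 2 was the highest of the initial state and the lowest of steatosis, and 3 of the 4 pools were higher in steatosis. Means were 12.12 ± 7.20 and 14.51 ± 4.73 FPKM, with a log2 fold change of 0.35 (SE 0.34, 95% interval -0.42 to 1.12, adjusted p = 0.469). The value moved both ways with single pools, to 0.70 (adjusted p = 0.0572) without pool 2 of the initial state, 0.19 (0.725) without pool 1 of the initial state and 0.17 (0.755) without pool 1 of steatosis. It was 0.01 (adjusted p = 0.99) without pool 1 of both groups and 0.10 (0.864) with the median ratio scaling.

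INHBE (gene ID 100518554) is on chromosome 5 at 22732774-22734716. It was at 3.39, 24.99, 11.66 and 7.50 FPKM in the initial pools and at 12.01, 7.88, 10.01 and 5.85 FPKM in steatosis. As for FGF21, pool 2 was the highest and pool 1 the lowest of the initial state, while pool 1 was the highest of steatosis. The log2 fold change was -0.11 (SE 0.50, 95% interval -1.23 to 1.02, adjusted p = 0.888), and it ranged from -0.58 to 0.36 over the fits that left out 1 library. TRIB3, a pseudokinase gene of the integrated stress response, was singled out after its values were seen. Its highest value was also in pool 2 of the initial state (11.86 FPKM, against 1.99 to 4.39 FPKM in the other 7 libraries). The stress response list did not share 1 peak. DDIT3, PSAT1 and CHAC1 were also highest in that pool. ATF3, DDIT4, SESN2 and PPP1R15A were highest in pool 1 of the initial state and PHGDH in pool 3. ATF4 and ASNS were highest in pool 3 of steatosis and VLDLR in pool 4.

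GDF15 (gene ID 100379630) is on chromosome 2 at 59409035-59411356. It was at 2.77, 1.03, 0.36 and 0.38 FPKM in the initial pools and at 1.38, 1.11, 1.26 and 1.32 FPKM in steatosis. The initial pools differed widely and pool 1 was the highest of all libraries, whereas the steatosis pools were close together. The log2 fold change was 0.57 (SE 0.51, 95% interval -0.57 to 1.70, adjusted p = 0.421). Pool 1 of the initial state decided the call: without it GDF15 rose by 1.12 on the log2 scale (adjusted p = 0.0274), and without pool 1 of both groups the value was 1.08 (adjusted p = 0.0633). It was smaller, and not called, without pool 3 (0.23) or pool 4 (0.26) of the initial state, with the median ratio scaling (0.34) and with a pseudocount of 1 (0.22). In the same library the 9 immediate early genes, which respond to tissue handling, summed to 449.4 FPKM, against 52.05 to 221.3 FPKM in the others, and their part in the GDF15 value was not tested.

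**Figure D3:**
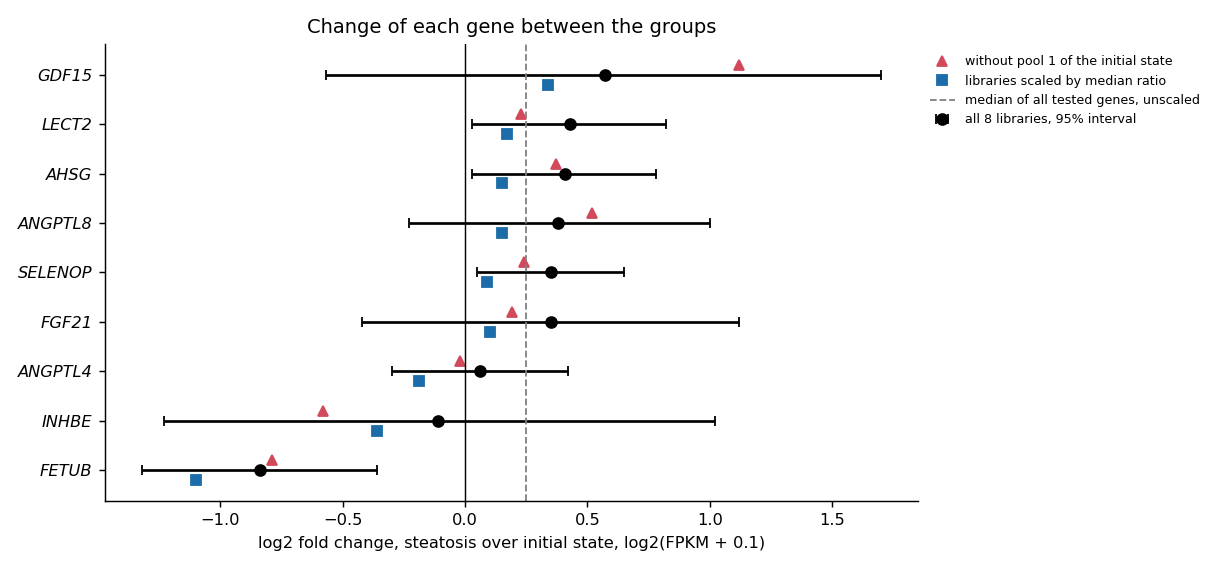
Log2 fold change of each gene, steatosis over initial state, on the log2(FPKM + 0.1) scale (horizontal axis), with circles and 95% intervals for all 8 libraries, squares after the median ratio scaling and triangles without pool 1 of the initial state. The interval of FETUB lies below 0 at -1.32 to -0.36, the dashed line marks the median of all tested genes at 0.25, and GDF15 moves from 0.57 to 1.12 without that pool.

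Of the FGF21 receptors, the co-receptor and the protease FAP that inactivates FGF21, 3 of 6 tested genes rose and 0 fell. Their median log2 fold change was 0.47, beside 0.25 over all tested genes, of which 26.7% rose and 2.28% fell. FGFR2 rose from 3.58 ± 0.37 to 7.64 ± 0.506 FPKM (log2 fold change 1.07, adjusted p = 0.000201). FGFR4, the main FGF receptor of hepatocytes, rose by 0.49 on the log2 scale (adjusted p = 0.0374) and FAP by 0.78 (adjusted p = 0.0353). With the median ratio scaling FGFR2 alone was called, as FGFR4 had an adjusted p of 0.333 and FAP of 0.101. FGFR4 also missed the threshold without pool 1 of the initial state (adjusted p = 0.0786).

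KLB, the co-receptor that gives FGF21 its specificity, was at 2.82, 3.53, 2.54 and 3.88 FPKM in the initial pools and at 8.56, 3.58, 2.14 and 4.77 FPKM in steatosis. The groups overlapped, and its log2 fold change was 0.41 (adjusted p = 0.398). FGFR1, the partner of KLB in adipose tissue, had 0.45 (adjusted p = 0.113). The GDF15 signalling receptor RET was between 0.12 and 0.39 FPKM, too low for the fit, with an exact two-sided permutation p of 0.20 (n = 4 per group). GFRAL was not analysed here.

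Of 12 integrated stress response genes, 1 rose and 1 fell, and the median log2 fold change was 0.22, beside 0.25 over all tested genes. ASNS, the asparagine synthetase, rose from 1.64 ± 0.449 to 4.81 ± 1.61 FPKM (log2 fold change 1.48, adjusted p = 0.00291). DDIT4, an inhibitor of mTORC1, fell from 61.13 ± 39.4 to 14.29 ± 5.75 FPKM (-1.86, adjusted p = 0.0265; 0.0504 without pool 1 of the initial state).

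PPARA, the fasting-activated receptor that drives FGF21 and ANGPTL4, had a log2 fold change of -0.16 (adjusted p = 0.729). Of 11 genes of the receptor and its targets, 3 rose and 6 fell, with a median of -0.39 against 0.25 over all tested genes. Without pool 1 of the initial state 2 rose and 3 fell, and with the median ratio scaling 1 rose and 7 fell. Those that fell included ACADM of fatty acid oxidation (log2 fold change -0.74, adjusted p = 0.00714) and the coactivator PPARGC1A (-0.98, adjusted p = 0.0422). FABP1, a fatty acid binding protein, rose (1.22, adjusted p = 0.00775). FGF21 and ANGPTL4 themselves did not pass the test. ACOT1 was not analysed here.

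LECT2 and SELENOP were the genes with no overlap between groups. They were 2 of the 9 genes, all in the higher direction, while 32.1% of all tested genes had no overlap and 29.6% had none with steatosis higher. LECT2 (gene ID 100518899) is on chromosome 2 at 138109537-138120285. Its FPKM was 316.35, 564.90, 581.26 and 485.61 in the initial pools and 678.84, 632.74, 626.10 and 616.72 in steatosis. Every steatosis pool was above every initial pool, and pool 1 of the initial state was the lowest of all. The mean was 487 ± 121 and 638.6 ± 27.6 FPKM, and the log2 fold change of 0.43 (SE 0.18, 95% interval 0.03 to 0.82) missed the threshold (adjusted p = 0.0938). Without pool 1 of the initial state it was 0.23 (adjusted p = 0.115), close to the median of all genes.

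SELENOP (gene ID 100037964) is on chromosome 16 at 27537885-27547863. It was at 2141.13, 2815.41, 2719.92 and 3045.43 FPKM in the initial pools and at 3154.70, 3863.02, 3221.93 and 3335.84 FPKM in steatosis. The lowest steatosis pool was just above the highest initial pool. The mean was 2680 ± 385 and 3394 ± 322 FPKM, with a log2 fold change of 0.35 (SE 0.13, 95% interval 0.05 to 0.65, adjusted p = 0.0766). Its log2 fold change exceeded the median of all genes by 0.10, and with the median ratio scaling it was 0.09 (adjusted p = 0.732).

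LECT2 binds the receptors MET and TIE1. TIE1, an endothelial gene, rose (log2 fold change 0.58, adjusted p = 0.0375), but not with the median ratio scaling (adjusted p = 0.124) or without pool 1 of the initial state (adjusted p = 0.0643). MET, the receptor of hepatocyte growth factor, had a log2 fold change of 0.41 (adjusted p = 0.052), and with the pool number as a block it passed the threshold (adjusted p = 0.032). With the median ratio scaling the log2 fold change of MET was 0.16, without the block (adjusted p = 0.423) and with it (0.282). Over 18 alternatives MET was called in 5. In bulk RNA, more cells of a type and more RNA per cell cannot be told apart.

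For activin E, 0 of 4 tested genes of activins and follistatins and 1 of 7 receptor genes passed the test. INHBC, the subunit of activin C that is also largely made in liver, was at 14.28 ± 5.16 and 19.84 ± 1.81 FPKM (log2 fold change 0.56, adjusted p = 0.144) and, like INHBE, was lowest in pool 1 of the initial state, at 6.79 FPKM. ACVR1C, the receptor ALK7 of adipose tissue, was at 0.38 to 0.80 FPKM (0.29, adjusted p = 0.396). BAMBI, a decoy receptor, rose (0.62, adjusted p = 0.0153; adjusted p = 0.10 with the median ratio scaling).

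Among the SELENOP receptors only LRP1, a broad endocytic receptor, was high enough for the fit, and it rose from 24.88 ± 5.14 to 40.61 ± 5.59 FPKM (log2 fold change 0.72, adjusted p = 0.00953). LRP8, which takes up SELENOP in brain and testis, was at 0.10, 0.11, 0.26 and 0.14 FPKM in the initial pools and at 0.28, 0.49, 0.46 and 0.53 FPKM in steatosis. The groups did not overlap (exact two-sided permutation p = 0.0286, the smallest that 4 pools against 4 can give). LRP2, the receptor of the kidney, was at 0.10 FPKM or less (exact permutation p = 0.257). Such p-values were computed for 9 related genes below the filter and were not adjusted.

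Of 16 other selenoprotein genes, 6 rose and 1 fell, and their median log2 fold change was 0.34. Over all tested genes 26.7% rose and 2.28% fell, and the median was 0.25. GPX3, the plasma glutathione peroxidase, rose from 66.7 ± 14.8 to 153 ± 49.7 FPKM (log2 fold change 1.17, adjusted p = 0.00389). SELENON of the endoplasmic reticulum rose by 1.0 on the log2 scale (adjusted p = 0.00187), SELENOM by 0.95 (adjusted p = 0.00429) and the thioredoxin reductase TXNRD1 by 0.73 (adjusted p = 0.0039). With the median ratio scaling 4 rose and 2 fell, beside 12.2% and 8.87% of all genes tested with it.

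The factors that build selenoproteins showed no common direction, with 1 of 7 higher, 1 lower and a median log2 fold change of 0.04. SEPSECS, which makes selenocysteine on its tRNA, fell from 16.66 ± 2.24 to 10.75 ± 0.668 FPKM (-0.62, adjusted p = 0.00397). PSTK, the kinase of the preceding step, was low and rose (0.60, adjusted p = 0.0423), but was not called with the median ratio scaling (adjusted p = 0.135), without pool 1 of the initial state (0.0704) or with the pool number as a block (0.0714).

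Of 11 other hepatokine genes tested, 3 rose and 0 fell, with a median log2 fold change of -0.02. With the median ratio scaling 2 rose and 2 fell, and the median was -0.27. TSKU, which encodes the secreted protein tsukushi, rose from 3.95 ± 1.09 to 19.55 ± 6.21 FPKM (log2 fold change 2.26, adjusted p = 0.000182). SMOC1 rose by 0.72 on the log2 scale (adjusted p = 0.00126). Over all 15 lists of receptors, partners and related genes, 27 of 96 tested genes (28.1%) rose and 12 (12.5%) fell, beside 26.7% and 2.28% of all tested genes, and their median log2 fold change was 0.19 beside 0.25. With the median ratio scaling, 14 (14.6%) rose and 17 (17.7%) fell, beside 12.2% and 8.87% of all genes tested with it.

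The calls of related genes differed in how they held over the alternative settings. CST3, CSTB, APOA5, FGFR2, ASNS, ACADM, LRP1, GPX3, SELENON, SELENOM, TXNRD1, SEPSECS, TSKU and SMOC1 were called in all 18, and LPL in all 17 that gave a value. FABP1 was called in 17 of 18, HRG and LIPC in 15, BAMBI in 14 and ANGPTL6 in 13. DDIT4 was called in 11 of 18, with adjusted p up to 0.0809, and APOC3 in 10, with adjusted p up to 0.286. FAP and PPARGC1A were called in 9 of 18, FGFR4 and TIE1 in 8, ANGPTL7 in 6 of 17 and PSTK in 4 of 17.

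**Figure D4:**
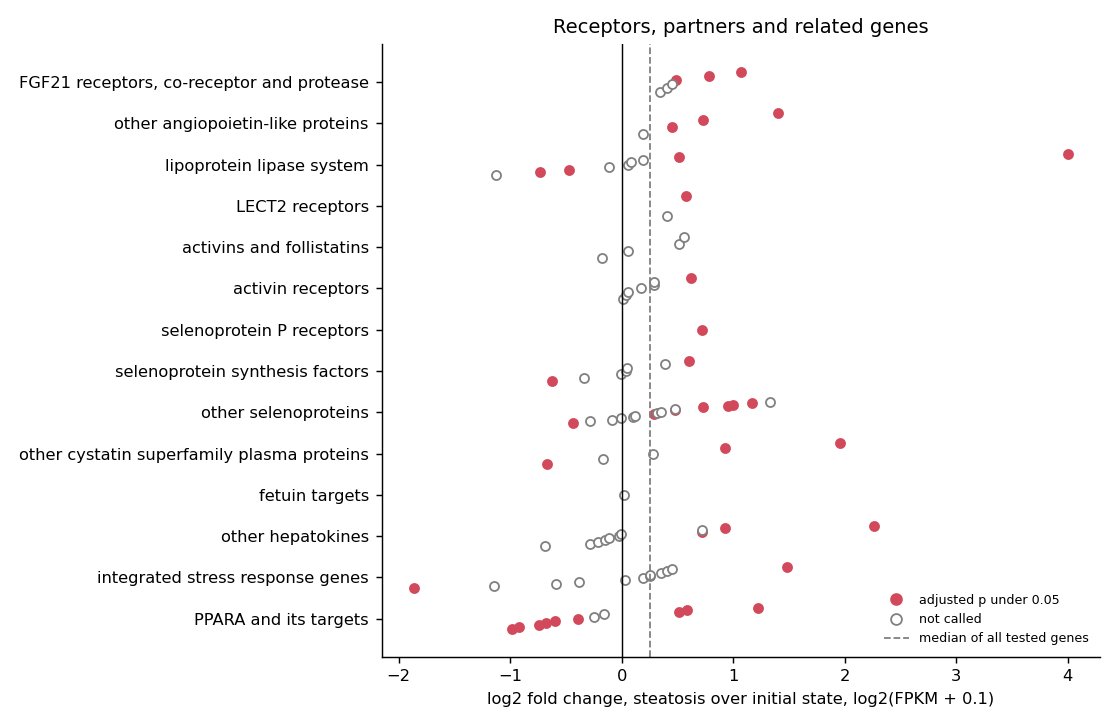
Log2 fold change (horizontal axis, log2(FPKM + 0.1) scale) of each tested gene in the lists of receptors, partners and related genes (rows), filled where the adjusted p was under 0.05. LPL lies farthest to the right at 4.00, DDIT4 farthest to the left at -1.86, and 6 of 11 genes of PPARA and its targets are called to the left of 0.

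The spread between pools was part of the pattern of these genes. The coefficient of variation was lower in steatosis for 8 of the 9 genes, ANGPTL8 being the exception, but it was also lower in steatosis for 74.0% of all tested genes. In the initial state it was 99.9% for GDF15, 78.8% for INHBE and 59.4% for FGF21, and in steatosis 9.14%, 29.8% and 32.6%. Only 1.24, 2.38 and 4.79% of tested genes varied as much or more than these 3 in the initial state. For each, 1 initial pool was above the others, although for GDF15 and INHBE the others also differed widely. Of these 3 genes only FGF21 had a pool flagged by the outlier criterion given below. The highest was pool 1 for GDF15 (2.77 against 0.36 to 1.03 FPKM). It was pool 2 for INHBE (24.99 against 3.39 to 11.66 FPKM) and FGF21 (22.88 against 7.74 to 8.95 FPKM). GDF15 was also near 1 FPKM, whereas the comparison took in genes of all levels. The median coefficient of the 9 genes was 25.1% in the initial state and 11.2% in steatosis, and that of all tested genes was 17.7% and 11.3%. No test of the spread was made.

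The pattern most like that of each gene over the 8 libraries was sought among 12108 other named genes, as the smallest root mean square difference of centred log2 values. LECT2 was nearest to FOXA1, a liver transcription factor gene, with a difference of 0.05, and SELENOP to INSIG2, of sterol sensing, with 0.04. AHSG was nearest to CAPN10 (0.09), ANGPTL4 to ISG20L2 (0.09) and ANGPTL8 to DRC3 (0.19). FETUB was nearest to MOGAT1, an acyltransferase gene of triglyceride synthesis (0.23), and FGF21 to RASSF6 (0.25). GDF15 was nearest to the lipid droplet gene PLIN4 (0.30) and INHBE to TMSB15A (0.31), the largest differences of the 9. GDF15 and INHBE also varied most about their own means, with root mean squares of 0.82 and 0.78. The differences therefore do not rank the likenesses. PLIN4, like GDF15, was highest in pool 1 of the initial state, at 3.80 FPKM against 0.78 to 1.91 FPKM elsewhere. That library held transcripts of other tissues, and their part in this likeness was not tested. These likenesses are descriptions, with no test.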

How the data were processed

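Liver RNA was sequenced as 100 bp paired-end reads. The authors mapped the filtered reads with HISAT2 2.0.4 to the pig genome (Sscrofa11.1), merged new coding transcripts with the reference, and quantified genes with Bowtie2 2.2.5 and RSEM 1.2.12 (versions from the submitters' processing notes). The deposited FPKM values, with no stated scaling between libraries, were used as they are. Read numbers were not used, so precision is the SD between pools. The authors' comparisons of single pools (fold changes and error rates) were not used.

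The 13175 genes that reached 0.3 FPKM in 4 or more of the 8 libraries were tested with limma 3.58.1 (R 4.3.3, mean-variance trend, group as the only term, Benjamini-Hochberg adjustment) on log2(FPKM + 0.1), which understates the change of low genes. The fit was tested on simulated data. Partners below the filter were compared by exact permutation (Python 3.11.15, numpy 2.4.6, pandas 2.3.3, scipy 1.17.1), and figures were drawn with matplotlib 3.10.9. Coordinates are those of RefSeq, matched by gene ID for all 9 genes. The 9 genes, the lists of related genes and the markers were chosen with earlier results of these data known. Named are the 9 genes, their direct receptors and partners, at most 4 called genes of a list with the largest change, and the gene nearest in pattern to each of the 9. A few genes of the lists are not reported here by name.

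Libraries were paired by pool number, which rests on the data and not on the labels: deviations from the group means had a correlation of 0.163 for pool 1, 0.35 for pool 2, 0.317 for pool 3 and 0.247 for pool 4. Alternatives were other scalings, filters and pseudocounts, the pool number as a block, each library left out, and, added after seeing the data, pool 1 left out of both groups and the median ratio scaling with the block.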

Additional observations from a re-analysis of the deposited data

Results flagged for a closer look

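A single pool far from the other 3 was sought in 56 groups of 4 pools (the 9 genes, their partners and the marker sums). Dixon's criterion at the 95% level was used, by which chance flags about 1 in 20 independent groups. The groups here share libraries and were chosen with earlier results known, so their number cannot be compared with that rate. Such a pool was found in 7 groups. Among the 9 genes these were FGF21 in pool 2 of the initial state, at 22.88 FPKM against 7.74 to 8.95 FPKM, and AHSG in pool 3 of the initial state, at 3595.50 FPKM against 2119.73 to 2301.98 FPKM. Without these pools the log2 fold changes were 0.70 for FGF21 (limma, adjusted p = 0.0572) and 0.58 for AHSG (adjusted p = 0.00618), while with any 1 library left out they ranged from 0.17 to 0.70 and from 0.33 to 0.58. LPL in pool 1 of the initial state was at 6.59 FPKM against 0.05 to 0.27 FPKM, in the same library where the summed FPKM of skeletal muscle markers was 2942 and that of stomach mucosa markers was 1525. The hepatocyte marker sum of pool 4 of the initial state was 95610 FPKM, against 63110 to 68190 FPKM. Most of this excess was ALB, at 71002.95 FPKM in that pool against 41268.10 to 45743.23 FPKM in the other initial pools. LRP2 in pool 2 of steatosis was at 0.01 FPKM and the other 3 pools were listed at 0, a level at which the value carries no weight.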

How the results depend on the processing

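FETUB fell in all 18 alternatives. AHSG passed the threshold in 1 of 18 and GDF15 in 1 of 18, and FGF21, ANGPTL4, ANGPTL8, LECT2, INHBE and SELENOP in none. The number of the 9 genes that rose or fell was 1 to 2 when each library was left out, with 2 without pool 1 (GDF15 added) or pool 3 (AHSG added) of the initial state. The number differentially expressed was 0 to 1 in the same runs, with FETUB (-1.03) counted without pool 2 of the initial state, and 1 (FETUB, -1.10) with the median ratio scaling and the pool block together. ANGPTL4 turned to -0.17 with the upper quartile scaling, -0.19 with the median ratio, -0.19 with the median ratio and the block, and -0.07 without pool 1 of both groups, and ranged from -0.04 to 0.16 with a library left out. INHBE ranged from -0.58 to 0.36 with a library left out, turning to 0.36, 0.00 and 0.08 without initial pool 2, initial pool 3 and steatosis pool 4. Without pool 1 of both groups INHBE was at -0.74. The cause was not tested.

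Over all genes, 3519 higher and 300 lower calls became 1671 and 1022 with the upper quartile scaling, 1602 and 1164 with the median ratio, and 1577 and 1028 with the median ratio and the block. Higher calls were 2275 without pool 1 of both groups. With a library left out they were 2200 to 3401 higher, lowest without pool 4 of steatosis, and 168 to 397 lower, with 168 without steatosis pool 4 and 189 without steatosis pool 3. The 792 higher and 44 lower differentially expressed genes became 439 and 74, 423 and 77, and 425 and 81 with those 3 scalings, 395 higher with a pseudocount of 1, and 573 to 788 higher and 26 to 51 lower with a library left out (29 without initial pool 2, 28 without steatosis pool 2, 26 without steatosis pool 4). The pool number as a block changed the call of none of the 9 genes (FETUB, adjusted p = 0.0139). Among related genes, beside MET and PSTK in the text, the block added LIPG (adjusted p = 0.0413) and DIO1 (adjusted p = 0.00177), both named after their values were seen. What depth limits was not measured, since read numbers were not used.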
